A study of Mus musculus with 8 samples.

Results

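The phagocyte NADPH oxidase was followed through 5 of its genes, Cybb, Cyba, Ncf1, Ncf4 and Rac2, in sorted mouse bone marrow cells. The genes were chosen by symbol. Each was read by 1 probe set, so the 5 were taken from 19938 genes and 35556 probe sets. Cybb had been picked because its level was lower in MEP cells of the transgenic mice, and its values in MEP cells are therefore given as a description without a test.

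The 8 Affymetrix arrays fall into 4 groups of 2. The groups were WT KLS and WT MEP from wildtype mice, and TG KLS and TG MEP from mice labelled ∆Hmga2, in a series on overexpression of Hmga2, a chromatin-binding high mobility group protein. All mice were of strain C57BL/6J, each array held a separate preparation pooled from 4 or 6 mice, and no treatment is named. KLS stands for cells with c-Kit and Sca-1 but no lineage antigens, a fraction that holds stem cells and early progenitors. MEP stands for the progenitors of megakaryocytes and red cells. The sources used here do not name the promoter that drives the transgene, the number of founder lines, or the age and sex of the mice. With 2 pools per group, p-values set a difference against the spread between pools, estimated over all 4 groups and moderated across all genes.

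The oxidase makes superoxide from NADPH and oxygen in neutrophils and macrophages. Cybb (gp91phox) and Cyba (p22phox) form the flavocytochrome in the membrane, which carries the electrons. Ncf1 (p47phox) and Ncf4 (p40phox) wait in the cytosol and move to the membrane on activation, with the small GTPase Rac2 as the switch. Loss of Cybb, Cyba, Ncf1 or Ncf4 causes chronic granulomatous disease, in which phagocytes cannot kill certain microbes.

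On the arrays, the cell types differed in known marker genes. Of 15 measured KLS and stem cell markers 7 were called higher in KLS cells, among them Cd34 and Flt3, against 1.2% of all genes. Of 17 erythroid markers 17 had a difference toward MEP cells, 2 of them called, against 46.5% and 0.396% of all genes. Of 11 megakaryocyte markers, however, 8 had a difference toward KLS cells and 3 toward MEP cells (median 0.19 toward KLS cells), none called. Replicates correlated across genes at 0.981 to 0.988. The WT MEP pair was the farthest apart, with 421 genes differing by more than 2 fold, against 111 to 223 in the other pairs. The WT MEP 1 array also stood apart in B-lineage genes, with a mean log2 level over 13 genes of 9.08, where WT MEP 2 had 6.93, the TG MEP arrays 6.80 and 6.89, and the KLS arrays 7.54 to 8.08. Hmga2 itself was read at log2 levels of 6.70 and 6.74 in WT MEP, 6.95 and 6.99 in TG MEP, 6.85 and 7.12 in WT KLS, and 7.35 and 7.11 in TG KLS cells. The TG MEP arrays lay above the WT MEP arrays, while in KLS cells the genotypes overlapped, and neither difference of 0.25 ± 0.15 passed (limma adjusted p = 1 each). The sources used here do not say which stretch of the gene the transgene kept, so this probe set may or may not read it.

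The promoters of the subunits are shown because the 5 genes were correlated over the 8 arrays, pair by pair from 0.824 to 0.940. These values include the difference between cell types. Within KLS cells the lowest was 0.35 (Cybb with Ncf1) and within MEP cells 0.33 (Ncf1 with Ncf4). Shared control of the genes was not tested. RefSeq sequence (GRCm38.p6) was at hand for 3 of the 5 genes. Each run holds the 250 bases before the annotated start, read 5′ to 3′ on the gene's strand, which is the minus strand for the 3 genes. For Cybb the start in the table lies inside the gene's annotated span given below, so its window belongs to an inner start and not to the outermost one. Capitals mark the core GGAA of ETS factors, or its reverse complement. Spi1 (PU.1), the ETS factor that drives myeloid genes, is known to bind the promoter of Cybb.

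Cybb, chrX:9469325-9469574: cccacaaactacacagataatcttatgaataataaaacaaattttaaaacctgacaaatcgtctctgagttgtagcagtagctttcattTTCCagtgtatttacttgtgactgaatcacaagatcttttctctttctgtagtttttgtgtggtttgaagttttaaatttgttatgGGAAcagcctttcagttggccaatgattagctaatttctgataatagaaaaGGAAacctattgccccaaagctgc

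Cyba, chr8:122432941-122433190: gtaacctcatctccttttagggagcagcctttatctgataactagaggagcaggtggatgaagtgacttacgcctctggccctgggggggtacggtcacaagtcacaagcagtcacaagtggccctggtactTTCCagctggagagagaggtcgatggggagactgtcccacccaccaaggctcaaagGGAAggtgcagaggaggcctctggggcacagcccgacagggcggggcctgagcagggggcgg

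Ncf1, chr5:134229626-134229875: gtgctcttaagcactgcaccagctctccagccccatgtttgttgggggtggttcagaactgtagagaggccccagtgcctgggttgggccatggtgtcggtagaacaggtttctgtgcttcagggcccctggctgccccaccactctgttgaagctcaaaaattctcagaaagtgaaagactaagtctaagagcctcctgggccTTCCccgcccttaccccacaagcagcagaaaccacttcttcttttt

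Motifs were searched as letters on both strands. GGAA occurred 3 times before Cybb, 2 times before Cyba and 1 time before Ncf1, and 93.4% of the 32851 windows of this length in the table hold it. The nearest copy to the start lay 24 bases before it in Cybb, 62 in Cyba and 46 in Ncf1, counted from the first base of the match. AGATAA, which GATA1 and its relatives bind, occurred 1 time each before Cybb and Cyba and is in 9.99% of windows. Before Cybb there was also 1 copy of TGTGGT, a RUNX motif (14% of windows), and 1 of CCAAT (33.8% of windows). TATAAA, the TATA box, was found in none of the 3 windows and is in 12.4% of all windows. A match of letters describes the window and shows no binding.

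Cybb, the catalytic subunit, lies on chromosome X (9435252 to 9487766). Its log2 level was 9.87 and 10.40 in WT KLS, 9.93 and 9.52 in TG KLS, 9.88 and 8.80 in WT MEP, and 7.66 and 7.95 in TG MEP cells. The TG MEP arrays were the lowest of the 8, and WT MEP 1 lay within the range of the KLS arrays. Among MEP arrays the TG mean was 7.80 ± 0.20 and the WT mean 9.34 ± 0.76 (SD, n = 2 per group). TG thus differed from WT by -1.53 ± 0.33 on the log2 scale (limma's SE), or 2.90 fold lower. Without WT MEP 1 it was -0.997 and without WT MEP 2 it was -2.07. This is the difference that Cybb was picked for. In bulk RNA, fewer cells of a type and less RNA per cell cannot be told apart.

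In KLS cells, which the choice of Cybb did not use, TG and WT arrays overlapped for this gene. The means were 9.73 ± 0.29 in TG and 10.13 ± 0.37 in WT (SD, n = 2 each). The difference of -0.41 ± 0.33 (95% interval -1.17 to 0.35) did not pass limma's test over all genes (adjusted p = 1). It was -0.67 without WT KLS 1, -0.15 without WT KLS 2, -0.62 without TG KLS 1 and -0.20 without TG KLS 2. The genotype difference in KLS cells minus that in MEP cells was 1.13 ± 0.47 for Cybb, which is given without a test because the MEP arrays enter it.

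**Figure D1:**
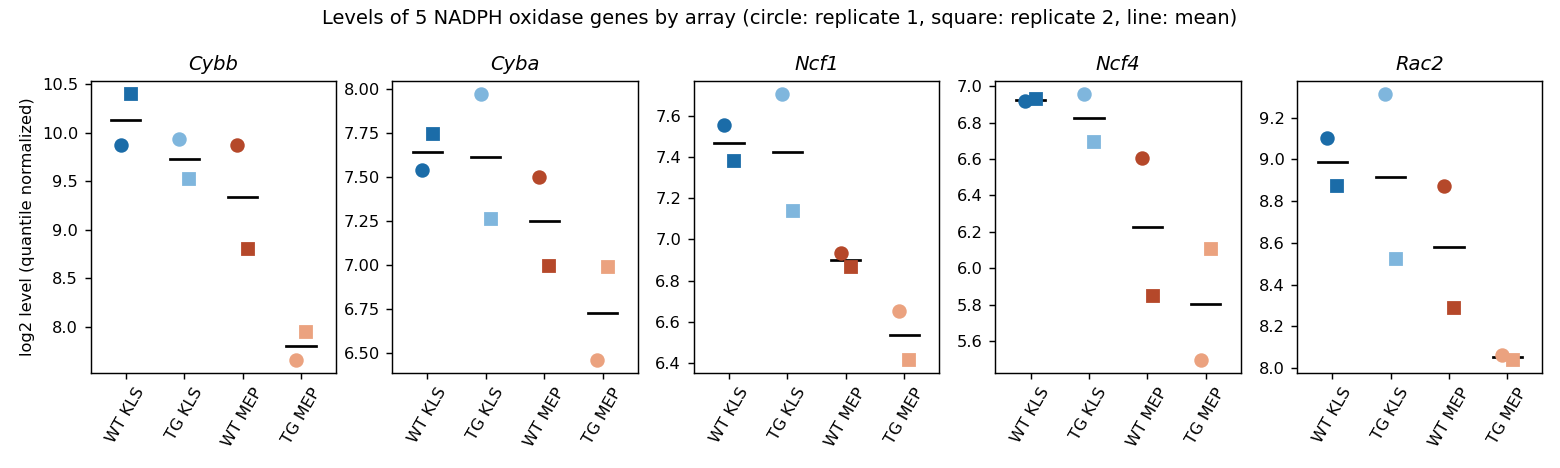
Log2 level of each gene (quantile normalized, vertical axis, with its own range per panel and not starting at 0) in the 4 groups; circles are replicate 1, squares replicate 2 and lines the group mean. In each panel the group means fall from WT KLS over TG KLS and WT MEP to TG MEP, and WT MEP 1 is the highest MEP array; the order of the KLS means turns under another scaling for Cyba, Ncf1 and Rac2.

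Cyba, the partner of Cybb in the membrane, is encoded on chromosome 8 (122424771 to 122432940). Its log2 level was 7.54 and 7.75 in WT KLS, 7.97 and 7.26 in TG KLS, 7.50 and 6.99 in WT MEP, and 6.46 and 6.99 in TG MEP cells. The lower WT MEP array, at 6.995, and the higher TG MEP array, at 6.986, were all but level. The difference of TG from WT was -0.52 ± 0.28 (95% interval -1.16 to 0.11) in MEP cells and -0.03 ± 0.28 (-0.66 to 0.60) in KLS cells, and neither passed (limma adjusted p = 1 each). The MEP value was -0.27 without WT MEP 1, -0.78 without WT MEP 2, -0.26 without TG MEP 1 and -0.79 without TG MEP 2. Scaling by the median, or the values as deposited, turned the sign of the KLS value.

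Ncf1, the organizer that brings the cytosolic subunits to the membrane, is on chromosome 5 (134220053 to 134229628). Its log2 level was 7.55 and 7.38 in WT KLS, 7.70 and 7.14 in TG KLS, 6.93 and 6.87 in WT MEP, and 6.65 and 6.42 in TG MEP cells. Both TG MEP arrays lay below both WT MEP arrays, and the 4 MEP arrays lay below the 4 KLS arrays. The difference of TG from WT in MEP cells was -0.37 ± 0.20 (95% interval -0.81 to 0.08) and did not pass (limma adjusted p = 1). Leaving out WT MEP 1 gave -0.33, and leaving out WT MEP 2 gave -0.40. In KLS cells it was -0.05 ± 0.20 (-0.50 to 0.40; limma adjusted p = 1), with the other sign under median scaling.

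Ncf4, which binds a phosphoinositide of the phagosome membrane, is on chromosome 15 (78244164 to 78262582). Its log2 level was 6.92 and 6.93 in WT KLS, 6.95 and 6.69 in TG KLS, 6.61 and 5.85 in WT MEP, and 5.50 and 6.11 in TG MEP cells. TG and WT MEP arrays overlapped, while the 4 MEP arrays lay below the 4 KLS arrays. The difference of TG from WT was -0.42 ± 0.27 (95% interval -1.04 to 0.19) in MEP and -0.10 ± 0.27 (-0.72 to 0.51) in KLS cells (limma adjusted p = 1 each). The MEP value was -0.04 without WT MEP 1, -0.80 without WT MEP 2, -0.12 without TG MEP 1 and -0.73 without TG MEP 2.

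Rac2, the GTPase of blood cells that switches the oxidase on, is also on chromosome 15 (78559169 to 78572783). Its log2 level was 9.10 and 8.87 in WT KLS, 9.31 and 8.52 in TG KLS, 8.87 and 8.29 in WT MEP, and 8.06 and 8.04 in TG MEP cells. The TG MEP arrays were close together and below both WT MEP arrays. The difference of TG from WT was -0.53 ± 0.27 (95% interval -1.14 to 0.09) in MEP and -0.07 ± 0.27 (-0.69 to 0.55) in KLS cells (limma adjusted p = 1 each). Without WT MEP 1 the MEP value was -0.24, and without WT MEP 2 it was -0.82. The KLS value changed sign with the values as deposited and under median scaling.

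For the 4 genes other than Cybb the group means followed 1 order, from WT KLS through TG KLS and WT MEP down to TG MEP, an order found in 10.1% of all genes. Its first step turned for Cyba and Rac2 with the values as deposited, and for Cyba, Ncf1 and Rac2 under median scaling. Cybb had this order too, but its TG MEP level is the one it was picked for. For Cyba, Ncf1, Ncf4 and Rac2 the WT KLS and TG KLS means differed by no more than 0.10, less than the SD of the TG KLS pair. In MEP cells the TG arrays lay below the WT arrays without overlap for Cyba, Ncf1 and Rac2 of these 4 genes, where 17.2% of all genes do so and 13% lie above. In KLS cells the genotypes overlapped for all 5 genes, where 17.2% of all genes lay lower and 11.7% higher in TG cells without overlap. In MEP cells TG minus WT was below 0 for each of these 4 genes and for 52% of all genes. In KLS cells it was below 0 for 5 of 5 genes, Cybb included, and for 54.2% of all genes, but not for Cyba and Rac2 as deposited or for Cyba, Ncf1 and Rac2 under median scaling. By limma 0% of all genes were called in MEP cells in either direction (3.71%, 739 genes, at an unadjusted p under 0.05). The same held in KLS cells (0%, and 2.51%, 500 genes, unadjusted) and for the difference between these changes (0%, and 2.27%, 453 genes, unadjusted). That difference was above 0 for the 4 genes other than Cybb, and below 0 for 49.4% of all genes. For it, Cyba was at 0.50 ± 0.39, Rac2 at 0.46 ± 0.38, Ncf4 at 0.32 ± 0.38 and Ncf1 at 0.32 ± 0.28 (limma adjusted p = 1 each). Without TG KLS 1 it was 0.14 for Cyba, 0.065 for Rac2 and 0.037 for Ncf1, and without TG KLS 2 it was 0.85, 0.85 and 0.60. For Ncf4, leaving out WT MEP 1 gave -0.057 and leaving out WT MEP 2 gave 0.70. Without WT MEP 2, 144 genes were called in MEP cells and 10 for the difference between the changes, and none of Cyba, Ncf1, Ncf4 and Rac2 was among them (limma adjusted p from 0.376 to 0.678 in MEP cells).

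WT MEP 1 was the highest MEP array for each of the 4 genes other than Cybb, and for 25.8% of all genes. TG KLS 2 was the lowest KLS array for 5 of 5, as for 32.8% of all genes, and TG KLS 1 the highest for 4 of 5, as for 29.9%. In TG KLS and WT MEP cells replicate 2 was below replicate 1 for each of the 5 genes, whereas in WT KLS and TG MEP cells the sign of this gap differed between genes.

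The comparison of KLS with MEP cells asks how the oxidase genes differ between the populations over both genotypes. The mean of each of the 4 genes other than Cybb was higher in KLS cells, where 46.5% of all genes were lower. Ncf1 had a KLS mean of 7.45 ± 0.24 and an MEP mean of 6.72 ± 0.23 (SD, n = 4 arrays per cell type). It was higher in KLS cells by 0.73 ± 0.14 on the log2 scale (SE), or 1.66 fold, which passed limma's test (adjusted p = 0.0458). Ncf4 differed by 0.86 ± 0.19 (95% interval 0.42 to 1.29, adjusted p = 0.0659), Cyba by 0.64 ± 0.20 (0.20 to 1.09, adjusted p = 0.154) and Rac2 by 0.63 ± 0.19 (0.20 to 1.07, adjusted p = 0.150), and these did not pass over all genes. Of the 4 genes 1 was thus called as higher, where 1.2% of all genes were (0.396% as lower, 1.6% in either direction, and 14.3% at an unadjusted p under 0.05). Ncf1 and Ncf4 had no overlap between the 4 KLS and 4 MEP arrays, which holds in this direction for 4.41% of all genes and in the other for 4.63%. Cybb had the widest gap of the 5, 9.93 ± 0.36 in KLS and 8.57 ± 1.00 in MEP cells, a difference of 1.36 ± 0.24 that is not tested because its TG MEP level was the reason for its choice.

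The Ncf1 call was lost in most fits with 1 array left out, which also have fewer arrays to test with. With 1 array left out it passed without TG KLS 2 (adjusted p = 0.0275) and missed the threshold without each of the others (adjusted p from 0.0540 to 0.156). It was also lost with the values as deposited (adjusted p = 0.0560) and under median scaling (0.0881). Ncf4 was called without WT MEP 1, at 1.05 (adjusted p = 0.0176).

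Within each genotype the KLS values were higher for the 5 genes. In WT cells the KLS minus MEP difference was 0.80 ± 0.33 for Cybb, 0.40 ± 0.28 for Cyba, 0.57 ± 0.20 for Ncf1, 0.70 ± 0.27 for Ncf4 and 0.41 ± 0.27 for Rac2 (log2, SE). In TG cells it was 1.92 ± 0.33 for Cybb, 0.89 ± 0.28 for Cyba, 0.89 ± 0.20 for Ncf1, 1.02 ± 0.27 for Ncf4 and 0.86 ± 0.27 for Rac2. In TG cells the KLS and MEP arrays did not overlap for any of the 4 genes other than Cybb, against 21.3% of all genes in this direction and 20.7% in the other. In WT cells they did not overlap for Cyba, Ncf1 and Ncf4, against 19.9% of all genes in this direction and 16% in the other, while Cybb and Rac2 overlapped through WT MEP 1.

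**Figure D2:**
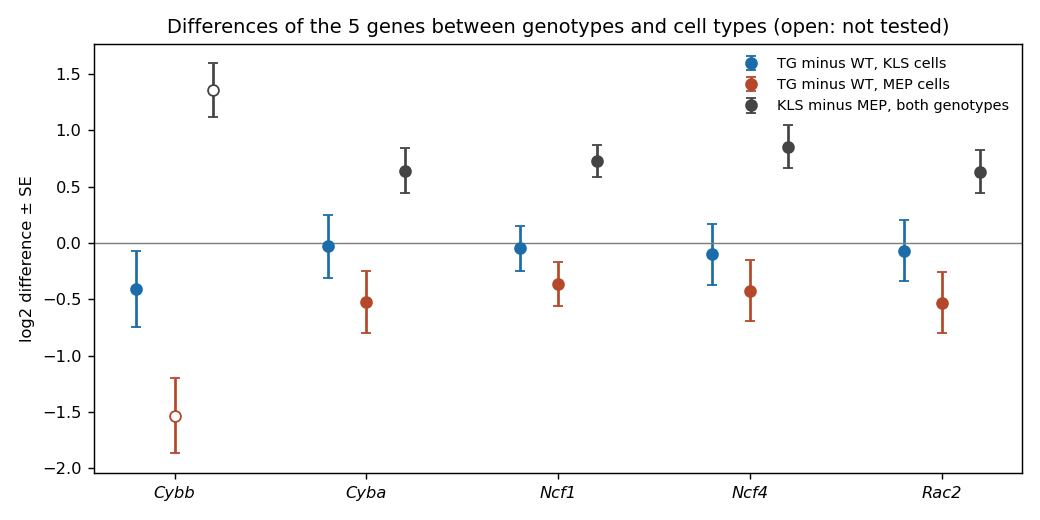
Log2 differences with limma's SE (vertical axis) for the 5 genes; blue is TG minus WT in KLS cells, red TG minus WT in MEP cells and grey KLS minus MEP over both genotypes, and open symbols are the Cybb values left untested. The red points lie below 0 for all 5 genes, from -1.53 in Cybb to -0.37 in Ncf1, and the grey points above 0, from 0.63 in Rac2 to 1.36 in Cybb.

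The profile of Cybb over the 8 arrays was then set against the 2066 other genes whose log2 level spanned at least 1 unit. Arrays share cell type and preparation, so these correlations are a description over 8 arrays. The 8 named genes with the highest Pearson correlation were Itgam (0.993), Ngp (0.993), Pilra (0.986), Lsp1 (0.985), Lyz2 (0.984), Lyst (0.984), Tuba1a (0.981) and Arrb2 (0.979). Itgam is the alpha chain of the phagocyte complement receptor, Ngp a granule protein of neutrophils, Lyz2 the lysozyme of myeloid cells and Lsp1 an actin-binding protein of leukocytes. Itgam was at 7.33 and 6.47 on the WT MEP arrays and at 5.79 and 6.05 on the TG MEP arrays. Ngp was at 11.50 and 10.45 on the WT MEP arrays and at 9.46 and 9.56 on the TG MEP arrays. Both had WT MEP 1 highest, WT MEP 2 between and the TG arrays lowest among MEP arrays, as Cybb did. These genes were picked for their correlation with Cybb, so this likeness is not a separate result. The correlation also uses the TG MEP level that Cybb was picked for. The other subunits followed Cybb less closely, with Cyba and Ncf4 at 0.914, Rac2 at 0.888 and Ncf1 at 0.838, at ranks 152, 155, 256 and 456 among the 2066 genes.

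**Figure D3:**
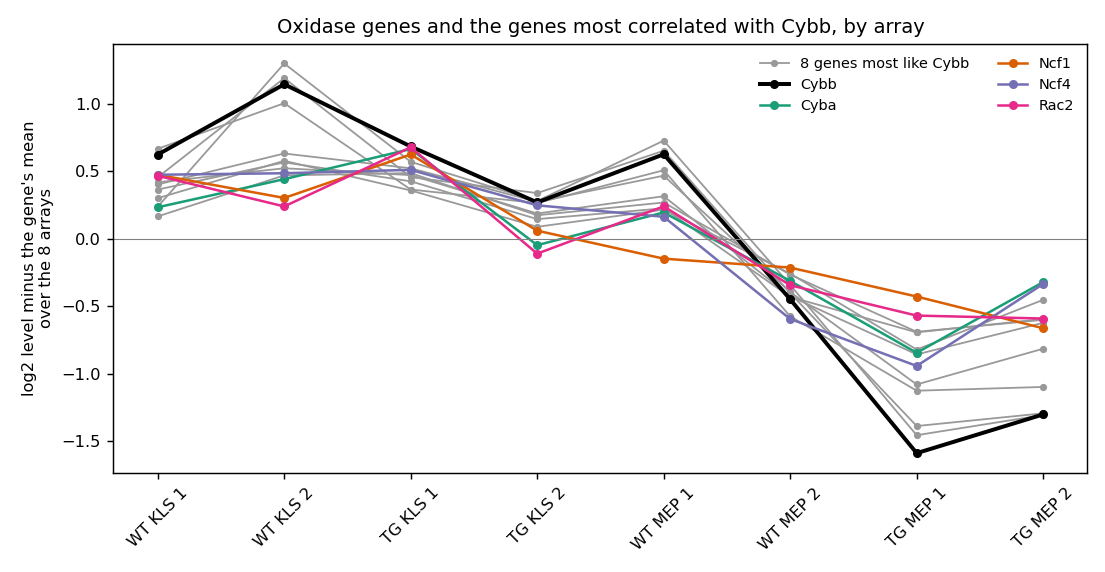
Log2 level minus the gene's own mean over the 8 arrays (vertical axis) on each array (horizontal axis, lines only join the points of a gene); Cybb is black, the other subunits are coloured and the 8 genes with the highest correlation with Cybb are grey. Cybb and the grey genes, picked for that correlation, share the raised value on WT MEP 1. Ncf1 is nearly level over the WT MEP arrays, at 6.93 and 6.87.

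Markers of neutrophils, monocytes and macrophages were read beside the oxidase genes. The neutrophil list mixes primary granule genes such as Mpo with later ones, so it does not stand for mature cells alone. The 18 measured neutrophil markers averaged 9.48 to 10.08 (log2) among KLS arrays. They were at 9.07 on WT MEP 1, at 8.43 on WT MEP 2, and at 7.80 and 7.89 in TG MEP cells. Summed on the linear scale they came to 25917 to 35341 in KLS, 23147 and 14482 in WT MEP, and 9080 and 9197 in TG MEP cells. In MEP cells 18 of 18 were below 0 for TG minus WT, with a median of -0.88, against 52% of all genes below 0 and a median of -0.0078. The median was -0.58 without WT MEP 1. The 15 monocyte and macrophage markers averaged 7.20 to 7.85 in KLS, 7.26 and 6.77 in WT MEP and 6.43 and 6.49 in TG MEP cells, with sums of 3260 to 5024, 2213 to 3887 and 1496 to 1584. Of these 13 of 15 were below 0 in TG MEP cells (median -0.45, and -0.21 without WT MEP 1). Their part in the level of the oxidase genes was not tested. None of these genes was called by genotype on all 8 arrays.

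Neutrophil RNA was also read in the lineage-negative KLS cells. Ngp was at 11.31 and 12.04 in WT KLS and at 11.31 and 11.19 in TG KLS cells. Lyz2 was at 10.08 and 11.14 in WT KLS and at 10.41 and 10.12 in TG KLS cells. For both, which were picked for their correlation with Cybb, WT KLS 2 was the highest of the 8 arrays, as it was for Cybb. WT KLS 2 was also the highest of the 8 for the neutrophil genes Ly6g (9.74) and S100a8 (12.88), which were not picked that way. Some other neutrophil genes ran the other way. WT KLS 2 was the lowest KLS array for the primary granule genes Mpo (11.53) and Ctsg (9.89) and for Ms4a3 (9.12). Elane, also a primary granule gene, was at 8.20 on WT KLS 2 and lower, at 8.06, on TG KLS 2.

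Lymphoid markers were higher on WT MEP 1 than on the other MEP arrays. Of the 13 B-lineage markers 13 were below 0 for TG minus WT in MEP cells, against 52% of all genes. Their median change was -1.35, against -0.07 if WT MEP 1 is left out and -2.52 if WT MEP 2 is. Summed, they came to 10159 on WT MEP 1, to 2373 on WT MEP 2, and to 2299 and 2545 in TG MEP cells. The 12 T and NK markers summed to 2075 on WT MEP 1 and 828 on WT MEP 2, and to 744 and 788 on the TG MEP arrays. B cells also carry the oxidase at low levels. The part of these cells in the values of the 5 genes was not tested, and the values without WT MEP 1 stand beside each gene above.

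**Figure D4:**
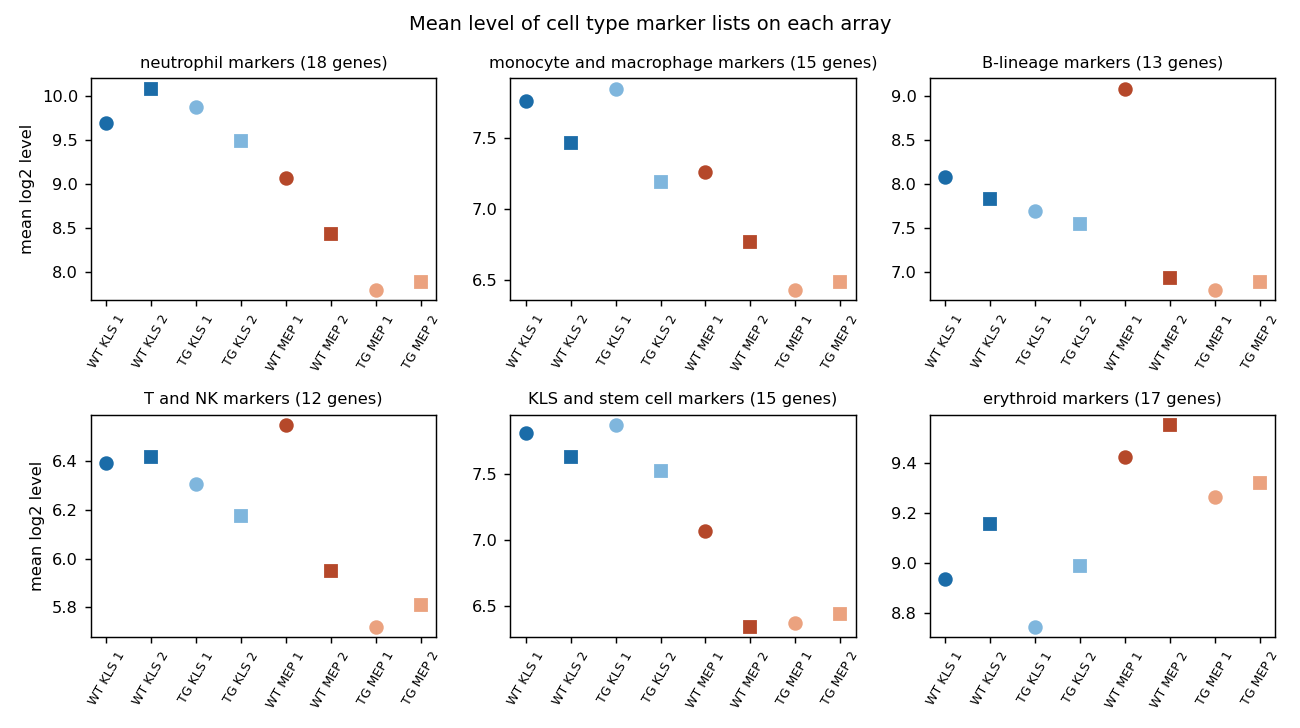
Mean log2 level (vertical axis, own range per panel, not starting at 0) of 6 marker lists on each array; circles are replicate 1 and squares replicate 2. WT MEP 1 is raised over the other MEP arrays in the B-lineage, T and NK, and stem cell lists, at 9.08 in the first, while the neutrophil list falls from 9.07 and 8.43 in WT MEP to 7.80 and 7.89 in TG MEP cells.

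The other genes around the oxidase were read in 6 lists, which were chosen with earlier results of these data known. Partner proteins comprise regulators of Rac, factors that help assemble the oxidase, and the proton channel that balances its charge. In MEP cells 12 of the 13 measured partner genes were below 0 for TG minus WT (median -0.43), against 52% of all genes. Without WT MEP 1, 9 were (median -0.15). None was called. Arhgdib, which holds Rac proteins in the cytosol, had the smallest p, at 12.17 and 10.97 on the WT and 10.50 and 10.76 on the TG MEP arrays (-0.94 ± 0.35, limma adjusted p = 1). Cybc1, a chaperone that Cybb needs to mature, differed between TG and WT by 0.13 ± 0.13 in KLS and by 0.04 ± 0.13 in MEP cells (limma adjusted p = 1 each). Between cell types 3 of 13 partner genes were called, all higher in KLS cells, against 1.2% of all genes called as higher. These were the Rac exchange factor Vav3 (1.76 ± 0.29, adjusted p = 0.0356), Coro1a, an actin regulator that binds p40phox (1.39 ± 0.25, adjusted p = 0.0421), and Arhgdib (1.30 ± 0.25, adjusted p = 0.0449).

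Kinases and lipid enzymes that activate the oxidase were below 0 in TG MEP cells in 13 of 14 genes, against 52% of all genes. Their median was -0.35, and 11 of 14 were below 0 without WT MEP 1 (median -0.11). Plcg2, a phospholipase behind immune receptors, was at 7.85 and 6.96 on the WT MEP and 5.69 and 6.62 on the TG MEP arrays. Its difference of -1.25 ± 0.38 was the one with the smallest p and did not pass (limma adjusted p = 1). Between cell types none of the 14 was called, with Prkcd, the kinase C that phosphorylates p47phox, at 1.05 ± 0.24 toward KLS cells (adjusted p = 0.0691).

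Of 20 receptors upstream of the oxidase 18 were below 0 in TG MEP cells, against 52% of all genes, with none called. Their median was -0.45, and 16 were below 0 without WT MEP 1 (median -0.17). Itgam, with the smallest p, differed by -0.98 ± 0.26 (limma adjusted p = 1). The toll-like receptor Tlr4 had the smallest p for the difference between the genotype changes, at 1.25 ± 0.50 (limma adjusted p = 1). Between cell types 3 of the 20 were called, all higher in KLS cells, against 1.2% of all genes called as higher. These were the IgG receptor Fcgr3 (1.65 ± 0.27, adjusted p = 0.0335), the signalling chain Fcer1g that it needs (1.52 ± 0.22, adjusted p = 0.0206), and the G-CSF receptor Csf3r (1.16 ± 0.16, adjusted p = 0.0160).

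Transcription factors of oxidase genes were below 0 in TG MEP cells in 13 of 15 genes, against 52% of all genes, with none called. Their median was -0.31, and 12 were below 0 without WT MEP 1 (median -0.06). Cebpd, a C/EBP factor, had the smallest p, at -0.44 ± 0.17 (limma adjusted p = 1). Spi1 was at 6.31 and 5.66 on the WT MEP and 5.54 and 5.82 on the TG MEP arrays, which overlap. In KLS cells Spi1 was at 7.60 and 6.93 in WT and 7.03 and 6.64 in TG (-0.42 ± 0.28, limma adjusted p = 1). Between cell types Spi1 was higher in KLS cells by 1.22 ± 0.20 (adjusted p = 0.0343) and Satb1, a chromatin organizer known as a repressor of Cybb, by 2.14 ± 0.36 (adjusted p = 0.0362). Thus 2 of 15 were called, where 1.2% of all genes were called as higher. All 15 lay toward KLS cells, where 46.5% of all genes lay the other way.

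Enzymes that use or remove peroxide lay on both sides of 0. In MEP cells 8 of 19 were below 0 for TG minus WT, against 52% of all genes, with a median of 0.0036. It was -0.03 as deposited, -0.05 under median scaling and -0.07 without WT MEP 1. Catalase (Cat), which breaks peroxide down and is abundant in red cells, was at 9.42 and 9.12 on the WT and 8.63 and 8.80 on the TG MEP arrays (-0.55 ± 0.17, limma adjusted p = 1). Between cell types 2 of 19 were called, both higher in KLS cells, against 1.2% of all genes called as higher. They were myeloperoxidase (Mpo, 3.28 ± 0.35, adjusted p = 0.00837), which turns peroxide into hypochlorous acid, and glutathione reductase (Gsr, 0.75 ± 0.14, adjusted p = 0.0440), which was not called as deposited (0.0885) or under median scaling (0.154).

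The 9 genes of the other NADPH oxidases and their partners had a median change of 0.09 in MEP and 0.02 in KLS cells, and 0.02 between cell types, none called. Duox1, a thyroid and airway oxidase, was at 5.58 and 5.50 on the WT MEP and 4.93 and 5.21 on the TG MEP arrays (-0.47 ± 0.15, limma adjusted p = 1). In KLS cells the medians of the 6 lists for TG minus WT lay between -0.07 and 0.02, and none of their genes was called. Lists not built around the oxidase also lay below 0 in MEP cells. The median was -0.40 for T and NK markers and -0.30 for mast cell, basophil and eosinophil markers (11 of 13 below 0). For erythroid markers it was -0.06 (9 of 17 below 0), with Alas2 at -1.20 ± 0.24 and none called.

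Calls between cell types were often lost when 1 array was left out. Such a fit also has fewer arrays, so a lost call does not show that it rested on that array. Without TG MEP 1 a single gene of all 19938 passed, the stem cell gene Hlf, so none of the calls named for these lists held. Mpo passed in 7 of the 8 fits with 1 array left out, Csf3r in 5, Fcer1g in 4, Coro1a and Spi1 in 3, Vav3, Fcgr3, Satb1 and Gsr in 2, and Arhgdib in 1. Under median scaling Vav3, Coro1a, Arhgdib and Satb1 were not called (adjusted p from 0.0577 to 0.0835), nor was Coro1a as deposited (0.0565). With robust variances the same genes, Vav3, Coro1a, Arhgdib and Satb1, were not called (adjusted p from 0.0531 to 0.0619).

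**Figure D5:**
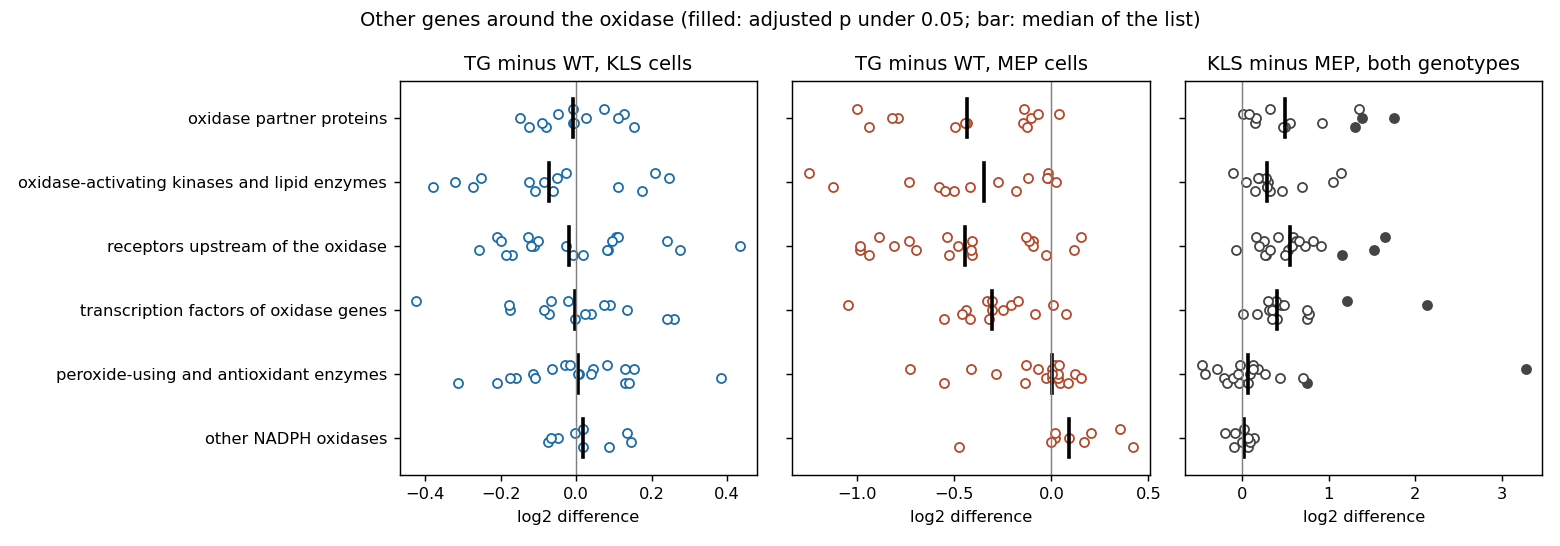
Log2 difference (horizontal axis) of each measured gene of 6 lists for TG minus WT in KLS cells, TG minus WT in MEP cells and KLS minus MEP, with the range of the axis set per panel; filled points had an adjusted p under 0.05, the bar is the median of the list, and points are spread vertically only for view. In MEP cells the medians of 4 lists lie from -0.45 to -0.31 with no filled point. Between cell types 10 points are filled, all toward KLS cells, where 1.2% of all genes were called as higher.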

How the data were processed

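The authors deposited 1 value per probe set and array, on a log2 scale from 1.71 to 14.0 as read from the values. Affymetrix Expression Console is named per the submitters' processing notes, and the sources used here do not say how probes were summarized or arrays normalized. Array medians spanned 0.106, over the limit of 0.1, so quantile normalization was applied. Of 35556 probe sets 21789 had 1 gene symbol in the platform annotation, 1621 had several and 12146 had no entry. RefSeq (GRCm38.p6) held the Entrez identifier of 21698 of the first and changed 0 symbols. The brightest probe set stood for a gene. The fit used R 4.3.3 and limma 3.58.1 (lmFit, contrasts.fit, eBayes), with a mean for each of 4 groups over 8 arrays (4 residual degrees of freedom, two-sided, Benjamini-Hochberg over 19938 genes, called at an adjusted p under 0.05), and the procedure was tested on simulated data. Arrays have no read depth, so their number limits the precision.

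The members and lists were chosen with earlier results of these data known. Named were the members, Hmga2, up to 4 called genes per list and comparison or the one with the smallest p, and the 8 genes most correlated with Cybb. Not every gene the rule allows is printed. Alternatives were the values as deposited, median scaling, dropping the dimmest 30% of genes, averaging probe sets, eBayes with an intensity trend or robust variances, weighting arrays, a replicate block, 1 cell type alone, and each array left out.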

Additional observations from a re-analysis of the deposited data

Results flagged for a closer look

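Each of the 5 genes was looked at for a single array far from the rest, among the 4 KLS arrays and among the 4 MEP arrays. Ncf4 on TG KLS 2 stood out, at a log2 level of 6.69 where the other KLS arrays lay from 6.92 to 6.95. Its gap to the nearest array was 0.862 of the whole range, above Dixon's 95% critical value for 4 values. No other of the 10 combinations of gene and cell type passed it. Chance flags about 1 in 20 such groups.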

How the results depend on the processing

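With 2 arrays per group, what was called changed when a single array was left out, though such fits also have fewer arrays. Of the values of the 5 genes under the alternatives, 73 of 85 kept direction and call for genotype in KLS cells and 85 of 85 in MEP cells. For the difference between them 79 of 80 did, and between cell types 70 of 80. Many alternatives alter only the error, or for a genotype change leave out an array of the other cell type. These leave the log2 change as it is, so its sign could not turn. Cybb has no call outside the KLS comparison, so only its direction counts there. By more than its residual SD, 2 of its values moved in MEP cells and 2 for the difference. For TG minus WT in KLS cells the sign turned with the values as deposited for Cyba (0.029) and Rac2 (0.026), and under median scaling for Cyba (0.060), Ncf1 (0.029) and Rac2 (0.056). With 1 array left out these KLS values ran from -0.67 to -0.15 for Cybb, -0.38 to 0.33 for Cyba, -0.33 to 0.24 for Ncf1, -0.23 to 0.031 for Ncf4 and -0.46 to 0.32 for Rac2. In MEP cells Cybb ran from -2.07 to -0.997, and the number of called genes from 0 to 144. The difference between the genotype changes ran from 0.59 to 1.66 for Cybb, 0.14 to 0.85 for Cyba, 0.037 to 0.60 for Ncf1, -0.057 to 0.70 for Ncf4 and 0.065 to 0.85 for Rac2, and its called genes from 0 to 10. Between cell types the called genes, 319 on all arrays, ran from 1 without TG MEP 1 to 738 without WT MEP 1, Ncf1 from 0.59 to 0.87 and Ncf4 from 0.67 to 1.05. Ncf1 was at 0.74 as deposited and 0.71 under median scaling, both no longer called, and 123 genes were called under median scaling. The cause was not tested. The replicate number as a block gave 562 called genes between cell types, which include the 319, and changed the call of none of Cyba, Ncf1, Ncf4 and Rac2. Same-numbered arrays deviated together in 3 of 6 pairs of groups (correlation from -0.28 to 0.38), so the numbers were not taken to pair the arrays.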

Other observations

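Cybb is X-linked, and RNA of both X- and Y-linked sex markers was read on every array, a set chosen after its values were seen. Xist, the RNA that silences an X chromosome in female cells, was at log2 levels of 10.45 and 10.16 in WT KLS, 10.16 and 10.05 in TG KLS, 10.67 and 9.94 in WT MEP, and 9.47 and 9.52 in TG MEP cells. The Y-linked gene Uty was at 7.13 and 7.10 in WT KLS, 7.82 and 7.57 in TG KLS, 7.54 and 7.84 in WT MEP, and 7.97 and 8.07 in TG MEP cells. Eif2s3y, also Y-linked, was at 7.54 and 8.05 in WT KLS, 8.33 and 8.44 in TG KLS, 8.19 and 8.35 in WT MEP, and 8.55 and 8.65 in TG MEP cells. Kdm5d, also Y-linked, was at 7.81 and 7.49 in WT KLS, 8.21 and 8.004 in TG KLS, 7.91 and 7.99 in WT MEP, and 8.03 and 7.97 in TG MEP cells. The TG MEP arrays were thus the lowest of the 8 for Xist and the highest for Uty and Eif2s3y, but not for Kdm5d, for which TG KLS 1 was the highest. Whether this bears on the level of Cybb was not tested.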
